A study of Mus musculus with 13 samples.

Results

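The 7 podocyte transcription factors described here are *Wt1*, *Lmx1b*, *Tcf21*, *Foxc1*, *Foxc2*, *Foxd1* and *Zhx2*. They were chosen by name from the table of 35967 gene symbols, and all 7 had a row. Each had a TPM (a transcript level corrected for transcript length and for the library total) that reached 1 in no fewer than 4 libraries, so all 7 were among the 14322 genes tested.

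Podocytes are the epithelial cells that wrap the glomerular capillaries and carry the slit diaphragm, the filter between their foot processes. Their mature state is kept by a small set of transcription factors. WT1 (a zinc finger protein) and LMX1B (a LIM homeodomain protein) bind many podocyte genes. TCF21 (a basic helix-loop-helix protein) and the forkhead proteins FOXC1, FOXC2 and FOXD1 act from kidney development onward, and ZHX2 is a zinc finger and homeobox protein that is known mainly as a repressor.

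The libraries came from glomeruli of wild-type Balb/c mice, all male per the study's methods, injected intraperitoneally with 2.0 mg of rabbit IgG, 1 library per mouse. Control mice received preimmune IgG (n = 5), and mice with membranous nephropathy (MN) received anti-THSD7A IgG and were euthanized at day 1 (n = 4) or day 5 (n = 4). THSD7A is a podocyte surface protein and an autoantigen of human MN, and in this model the antibody was transferred from rabbits and not made by the mice. Control mice of both days form 1 group. The methods give an adult age range for the littermate mice used for MN and none separately for the sequenced mice. The comparisons asked whether the transcription factors differed between MN and control glomeruli, early (day 1) or late (day 5).

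Glomerular libraries hold RNA of all glomerular cells. The 5 podocyte structural markers, among them *Nphs1*, *Podxl*, *Synpo* and *Ptpro*, summed to 5861 to 8272 scaled TPM in control libraries, 6566 to 8358 at day 1 and 6887 to 7341 at day 5. All 5 were above 1 TPM in every library, so podocyte RNA was present throughout. Sums of 8 tubular markers were 367 to 978 in control libraries, 738 to 1326 at day 1 and 569 to 669 at day 5. Sums of 6 leukocyte markers were 7.64 to 13.3, 8.55 to 17.5 and 12.1 to 16.9. In bulk glomeruli, fewer podocytes and less RNA per podocyte cannot be told apart.

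On GRCm39, *Wt1* lies on the plus strand of chromosome 2 from 104956625 to 105003961, and *Lmx1b* on the minus strand of the same chromosome from 33450977 to 33531093. *Tcf21* is on the minus strand of chromosome 10 from 22692803 to 22696073. *Foxc1* and *Foxd1* share chromosome 13 (31990616 to 31996459 and 98490750 to 98495813, both plus strand), *Foxc2* is on chromosome 8 from 121842910 to 121845634 and *Zhx2* on chromosome 15 from 57558048 to 57703228, both on the plus strand. *Tcf21* lies wholly inside the antisense lncRNA gene *Gm10824*, and *Foxc1* wholly inside the lncRNA gene *Gm11379* on its own strand. *Wt1os*, *Gm38011*, *Gm16006* and *9330154K18Rik* overlap *Wt1*, *Lmx1b* and *Zhx2* in part, all on the opposite strand. None of these 6 genes has a row in the table. The library strand was not stated, so reads from an overlapping gene cannot be told apart from those of the transcription factor.

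Of the 7 genes, *Lmx1b*, *Tcf21*, *Foxc1* and *Foxd1* had a promoter entry in the RefSeq table of GRCm38.p6. The 250 bases before the start of *Lmx1b* (chr2:33641099-33641348, minus strand) and *Foxd1* (chr13:98353995-98354244, plus strand) are shown because the levels of these genes went up and down together over the libraries, as described further on. Capitals mark CG dinucleotides.
Lmx1b: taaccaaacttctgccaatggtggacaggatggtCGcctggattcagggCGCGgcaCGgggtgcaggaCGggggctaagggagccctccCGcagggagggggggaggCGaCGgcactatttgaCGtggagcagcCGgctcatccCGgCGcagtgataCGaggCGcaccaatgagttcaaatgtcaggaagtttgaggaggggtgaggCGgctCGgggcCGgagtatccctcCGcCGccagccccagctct
Foxd1: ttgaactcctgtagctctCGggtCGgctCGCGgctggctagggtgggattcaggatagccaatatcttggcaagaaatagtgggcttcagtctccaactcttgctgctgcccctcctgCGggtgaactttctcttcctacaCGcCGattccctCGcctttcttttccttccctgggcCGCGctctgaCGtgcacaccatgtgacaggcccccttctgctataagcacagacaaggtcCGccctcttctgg
The *Lmx1b* window has 65.2% G and C with 19 CG dinucleotides, and the *Foxd1* window 57.2% with 12, against medians of 52.4% and 6 over 32851 windows. The *Foxc1* window was the richest of the 4, with 70.8% and 29, and the *Tcf21* window had 52.4% and 5. Searched on both strands, none of the 4 windows held TGTTTAC (a forkhead motif, in 3.17% of all windows), TAATTA (a homeodomain motif, 4.84%), CAGCTG (an E-box, 13%) or GCGTGGG (a WT1 type motif, 4.3%). None of these letter strings contains another, and a missing match says only that these letters are not in these windows.

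In control glomeruli the factors spanned an order of levels from *Wt1* and *Tcf21*, among the most abundant transcripts, down to *Foxd1* near the middle of the tested genes. Mean TPM was 334 ± 48.8 (SD, n = 5) for *Wt1*, 301 ± 49.1 for *Tcf21*, 89.7 ± 13.2 for *Lmx1b* and 79.1 ± 13.2 for *Foxc2*. It was 47.2 ± 4.45 for *Foxc1*, 33.1 ± 8.75 for *Zhx2* and 20.2 ± 2.82 for *Foxd1*. By its control mean, *Wt1* ranked 420 and *Foxd1* ranked 7573 among all 35967 gene symbols, of which 14322 were tested. Ranges of neighbours overlapped for *Wt1* and *Tcf21*, for *Lmx1b* and *Foxc2*, and for *Foxc1* and *Zhx2*, and 4 of 5 control libraries held each of these 3 pairs in the order of the means. The steps from *Tcf21* to *Lmx1b* (3.35-fold), from *Foxc2* to *Foxc1* (1.68-fold) and from *Zhx2* to *Foxd1* (1.64-fold) did not overlap.

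In MN glomeruli the top 2 places were exchanged. *Tcf21* was above *Wt1* in 3 of 4 libraries at day 1 and in 4 of 4 at day 5, where the means were 367 ± 36.9 and 273 ± 15.2 TPM (SD, n = 4) and the ranges did not overlap. The other places kept the control order of the means at both days. At day 5 *Zhx2* (22.0 ± 6.82) was near *Foxd1* (19.1 ± 0.932), with overlapping ranges, and 3 of 4 libraries held them in the control order.

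**Figure D1:**
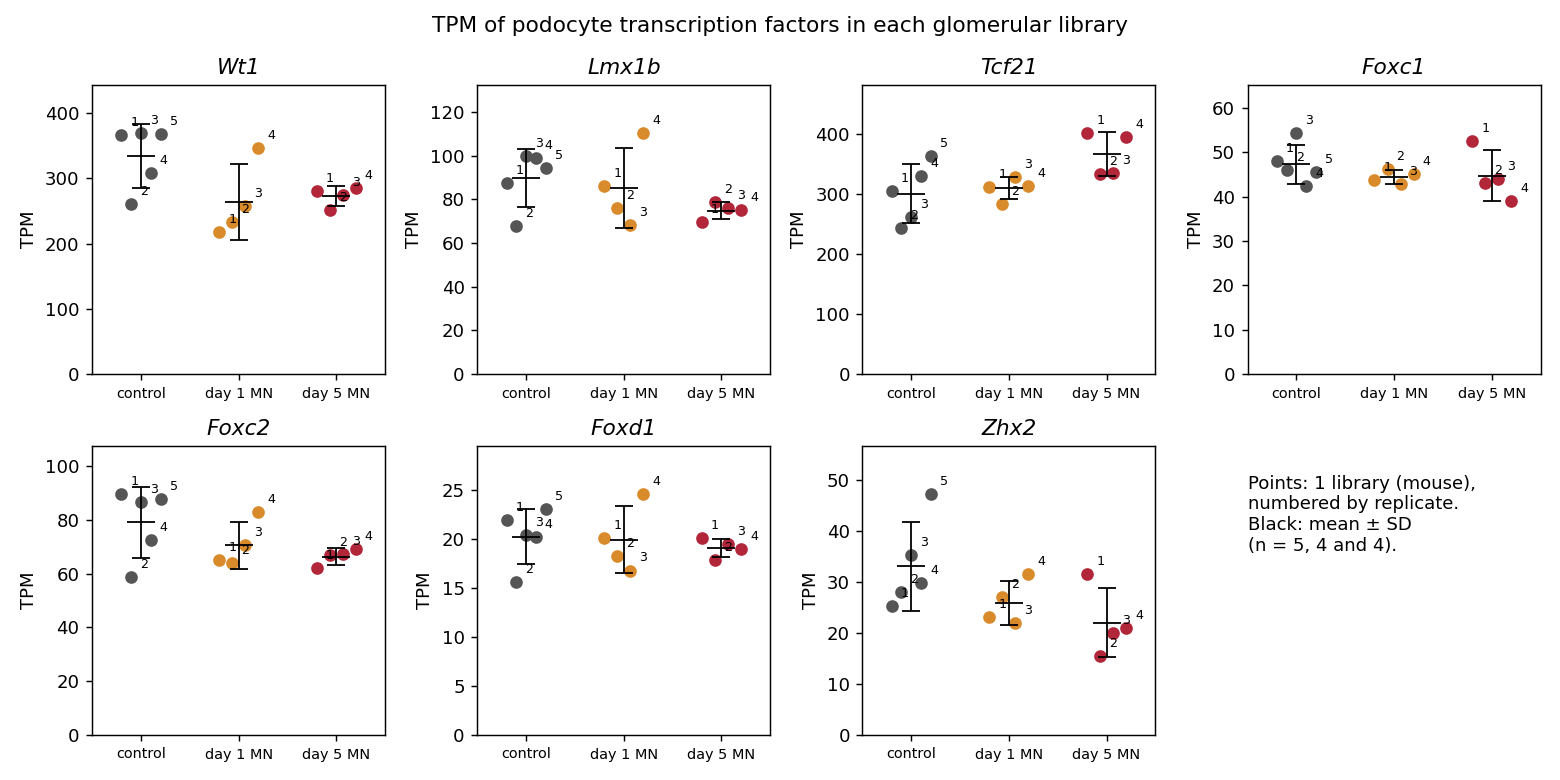
TPM of the 7 transcription factors (vertical axis, from 0) in control, day 1 MN and day 5 MN glomeruli. Points are libraries, numbered by replicate, and black marks give the mean and SD (n = 5, 4 and 4). The *Tcf21* points at day 5 all lie above those at day 1, and control 2 is the lowest control point for *Wt1*, *Lmx1b*, *Tcf21*, *Foxc2* and *Foxd1*.

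At day 1 no transcription factor passed the test. With limma, 0 of 7 were called (adjusted p under 0.05 with a log2 fold change beyond 0.5 in either direction), where 0.0908% of all tested genes were. 1 of 7, *Wt1*, had an unadjusted p under 0.05, as did 12.6% of all tested genes. 5 of 7 had a fold change below 0, beside 50.8% of all tested genes, and 0 of 7 had ranges that did not overlap (4.22% of all tested genes). The median log2 fold change of the 7 was -0.04 (all tested genes: -0.0029). Fold changes throughout are on the log2 scale of scaled TPM + 0.5, and adjustment is by Benjamini-Hochberg over all genes tested.

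*Wt1* had the lowest fold change of the 7 at day 1. Its TPM was 366, 260, 369, 308 and 367 in control libraries 1 to 5, and 218, 233, 257 and 347 in day 1 libraries 1 to 4. Day 1 libraries 1, 2 and 3 lay below all controls, while day 1 library 4 lay within the control range. The mean went from 334 ± 48.8 to 264 ± 57.7 TPM, a log2 fold change of -0.31 (95% interval -0.60 to -0.01, adjusted p = 0.387, limma). Without day 1 library 4 it was -0.45 (adjusted p = 0.277, limma), and without day 1 library 1 it was -0.22 (adjusted p = 0.71, limma). These were the lowest and the highest values over all libraries left out.

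*Lmx1b* and *Foxd1*, both highest in day 1 library 4, had fold changes near 0. *Lmx1b* TPM was 87.7, 67.7, 100.0, 98.8 and 94.3 in control libraries and 86.2, 75.9, 68.1 and 110 at day 1. *Foxd1* TPM was 21.9, 15.6, 20.4, 20.2 and 23.0 in control libraries and 20.2, 18.3, 16.8 and 24.6 at day 1. For each gene 1 day 1 library lay above all controls, none lay below all of them, and the groups overlapped. The log2 fold changes were -0.04 (interval -0.34 to 0.26) and 0.02 (interval -0.26 to 0.30). The sign of each changed under other settings, among them scaling on podocyte markers for *Lmx1b* and TPM as deposited for *Foxd1*.

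The other factors overlapped with control at day 1 as well. *Tcf21* was even across day 1 libraries, at 312, 285, 329 and 314 TPM, inside the control range of 244 to 364, with a log2 fold change of 0.10 (interval -0.15 to 0.36). *Foxc1* lay between 42.8 and 46.3 TPM against 42.3 to 54.3 in control libraries (log2 fold change -0.04, which changed sign with scaling on podocyte markers), and *Foxc2* between 63.9 and 83.0 against 58.8 to 89.7 (-0.11). *Zhx2* was 23.2, 27.0, 22.0 and 31.6 TPM, with 2 of 4 libraries below all controls (log2 fold change -0.28, interval -0.75 to 0.19, adjusted p = 0.622, limma).

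At day 5 again no factor was called, with *Tcf21* on the higher and *Zhx2* on the lower side. Limma called 0 of 7, where 3.21% of all tested genes were called. 2 of 7, *Tcf21* and *Zhx2*, had an unadjusted p under 0.05, as did 20.1% of all tested genes. 6 of 7 had a fold change below 0 (50.7% of all tested genes), and 0 of 7 had ranges that did not overlap (10.8% of all tested genes). The median of the 7 was -0.20 (all tested genes: -0.0032). Without control library 2 the number called stayed 0.

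*Tcf21* TPM was 305, 244, 261, 330 and 364 in control libraries and 402, 334, 336 and 395 at day 5. Day 5 libraries 1 and 4 lay above all controls, and libraries 2 and 3 lay between control libraries 4 and 5. The mean went from 301 ± 49.1 to 367 ± 36.9 TPM, a log2 fold change of 0.33 (interval 0.07 to 0.59, standard error 0.12, adjusted p = 0.132, limma). With the replicate number as a block the adjusted p was 0.0202, and without control library 5, the highest control, it was 0.0380 (both limma, log2 fold change 0.42). Both fold changes stayed below 0.5, so *Tcf21* was not called there either. The 2 fold changes are the same, because control library 5 has no same-numbered partner in the block. With other libraries left out the adjusted p reached 0.318, and under the other settings 0.223 (limma).

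*Zhx2* had the lowest fold change of the 7 at day 5, and the widest spread. Its TPM was 25.2, 28.0, 35.3, 29.8 and 47.3 in control libraries and 31.6, 15.5, 20.0 and 21.1 at day 5. Day 5 libraries 2, 3 and 4 lay below all controls, and library 1 lay among them. The log2 fold change was -0.55 (interval -1.02 to -0.09, standard error 0.22, adjusted p = 0.170, limma). The coefficient of variation of *Zhx2* was 26.4% in control libraries and 30.9% at day 5, the highest of the 7 in both groups. Without day 5 library 1 the log2 fold change was -0.76 (adjusted p = 0.0523, limma), and without control library 5 it was -0.40 (adjusted p = 0.291, limma).

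*Wt1*, *Lmx1b* and *Foxc2* had day 5 libraries that lay close together, below the control mean in 4 of 4 cases each. *Wt1* TPM was 281, 251, 274 and 285 at day 5, with 1 library below all controls. *Lmx1b* TPM was 69.8, 78.7, 75.9 and 75.0, and *Foxc2* TPM was 61.9, 66.8, 67.5 and 69.3, each inside the control range. Their coefficients of variation were 5.56%, 5.00% and 4.72% at day 5, against 14.6%, 14.7% and 16.7% in control libraries. The log2 fold changes were -0.24 (interval -0.54 to 0.05, adjusted p = 0.353), -0.21 (interval -0.51 to 0.09, adjusted p = 0.446) and -0.20 (interval -0.46 to 0.06, adjusted p = 0.401, limma).

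For all of these genes the lower end of the control range was set by control library 2. Without it the log2 fold changes at day 5 were -0.34 for *Wt1*, -0.32 for *Lmx1b* and -0.31 for *Foxc2*, with adjusted p of 0.139, 0.157 and 0.0636 (limma).

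*Foxc1* and *Foxd1* had intervals that reached both sides of 0 at day 5. *Foxc1* TPM was 48.1, 45.9, 54.3, 42.3 and 45.5 in control libraries and 52.6, 43.0, 44.0 and 39.1 at day 5. *Foxd1* TPM at day 5 was 20.1, 17.9, 19.5 and 19.0, below the control mean in 4 of 4 libraries. Its coefficient of variation was 4.87% at day 5 and 13.9% in control libraries. The groups overlapped for both genes. The log2 fold changes were -0.05 (interval -0.25 to 0.16) and -0.04 (interval -0.31 to 0.24), and both changed sign with scaling on podocyte markers, to 0.07 and 0.08.

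**Figure D2:**
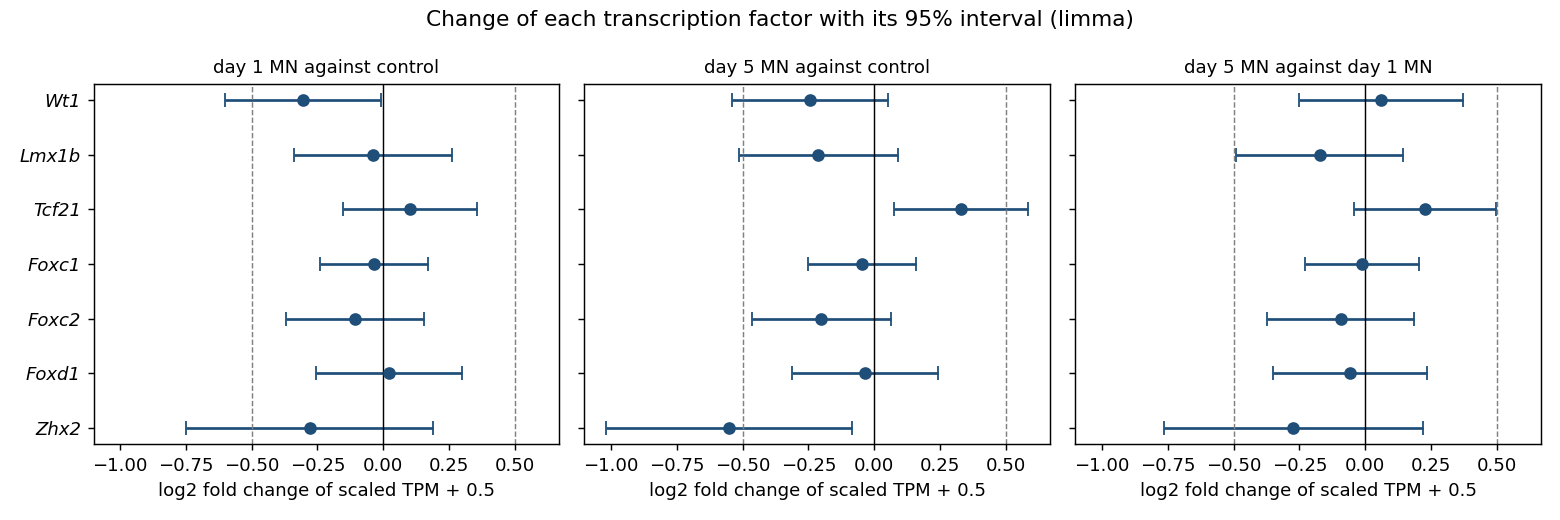
Log2 fold change of scaled TPM + 0.5 for each transcription factor (horizontal axis) in the 3 comparisons, with 95% intervals from limma. Dashed lines mark a log2 fold change of 0.5 in either direction. At day 5 the interval lies wholly above 0 for *Tcf21* (0.07 to 0.59) and wholly below 0 for *Zhx2* (-1.02 to -0.09), and the point lies past the dashed line for *Zhx2* only.

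Between the days no factor was called (0 of 7 with limma, where 1.81% of all tested genes were), and 0 of 7 had an unadjusted p under 0.05 (15.5% of all tested genes). 5 of 7 were below 0, beside 48.7% of all tested genes. *Tcf21* was the 1 factor whose ranges did not overlap, which held for 11% of all tested genes. All 4 day 5 libraries (334 to 402 TPM) lay above all 4 day 1 libraries (285 to 329 TPM), with a log2 fold change of 0.23 (interval -0.04 to 0.50, adjusted p = 0.413, limma). *Zhx2* had -0.27 (interval -0.77 to 0.22), *Lmx1b* -0.17 (interval -0.49 to 0.15) and *Foxc2* -0.09. The values of *Foxd1* (-0.06), *Foxc1* (-0.01) and *Wt1* (0.06) were smaller still, and *Foxc1* changed sign with scaling on podocyte markers. Both day groups were compared with the same control libraries, so their changes share those samples.

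Several factors moved together from library to library. Over the 13 libraries, all from 1 table and scaled alike, the Pearson r of log2 levels was 0.87 for *Wt1* and *Foxc2*, 0.82 for *Lmx1b* and *Foxd1*, 0.76 for *Lmx1b* and *Foxc2* and 0.75 for *Foxc2* and *Foxd1*. For each of these genes control library 2 was the lowest control and day 1 library 4 the highest day 1 library. No r of these pairs was taken without them. *Foxc2* ranked 9 among the 14321 other tested genes by likeness to *Wt1*, and *Foxd1* ranked 36 by likeness to *Lmx1b*. *Tcf21* had r between -0.07 and 0.41 with the other factors, and *Foxc1* between -0.07 and 0.53. Differences between the groups enter all of these r.

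Levels of several of these genes went with both podocyte and tubular markers. With group means removed, so that only differences between mice of a group remain, r with the mean log2 level of the 5 markers was 0.94 for *Foxc2*, 0.87 for *Lmx1b*, 0.86 for *Wt1* and 0.84 for *Foxd1*. It was 0.41 for *Tcf21*, 0.32 for *Zhx2* and 0.19 for *Foxc1*. Without control library 2 it was 0.85, 0.77, 0.80 and 0.69 for the first 4 genes, and -0.09 for *Tcf21*. With the tubular markers, r was 0.78 for *Lmx1b*, 0.76 for *Foxd1*, 0.62 for *Foxc2*, 0.58 for *Tcf21* and 0.52 for *Wt1* in the same way. Without control library 2 these were 0.63, 0.59, 0.26, 0.34 and 0.24. *Zhx2* had 0.48 and *Foxc1* -0.10 with the tubular markers, and 0.45 and -0.27 without that library. Control library 5 was not left out here. It was the highest control for both *Zhx2* and the tubular markers (log2 differences from the control mean of 0.60 and 0.77), so the *Zhx2* value may rest on it. These are descriptions over 13 libraries and carry no test.

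Control library 2 was the lowest control for 5 of 7 factors and also had the lowest podocyte sum (5861) and the lowest tubular sum (367) of any library, with the highest endothelial sum (5387) of the controls. Day 1 library 4 was the highest day 1 library for 5 of 7 factors, with the highest podocyte sum (8358) and tubular sum (1326) and the lowest endothelial sum (4451) of any library. *Wt1*, *Foxc2*, *Lmx1b* and *Foxd1* had a negative r with the endothelial markers within groups (-0.69, -0.70, -0.53 and -0.63). So did *Tcf21* (-0.56) and *Zhx2* (-0.30), while *Foxc1* had 0.31. Without control library 2 the values were -0.58, -0.60, -0.33 and -0.48 for the first 4 genes. They were -0.40 for *Tcf21*, -0.22 for *Zhx2* and 0.44 for *Foxc1*. The part of the podocyte, endothelial and tubular share in the fold changes was not tested. Values under 2 other settings are given here. With scaling on the podocyte markers, the day 5 log2 fold change was -0.13 for *Wt1*, -0.10 for *Lmx1b* and -0.09 for *Foxc2*, while *Tcf21* had 0.45 (adjusted p = 0.0960, limma) and *Zhx2* had -0.44 (adjusted p = 0.367, limma). That scaling moved the median of all tested genes to 0.11 at day 5 and 0.09 at day 1. Of its 5 markers, 3 were above 0 and 2 below 0 at day 5. The lower ones were *Synpo* (-0.46) and *Nphs1* (-0.18), while *Podxl* and *Ptpro* had 0.01 each. The scaling therefore also carries the change of *Synpo* and is not a measure of podocyte share alone. With a tubular marker score as a covariate, no factor was called in any comparison. The day 1 log2 fold changes were then -0.60 for *Zhx2*, -0.52 for *Wt1*, -0.37 for *Lmx1b*, -0.33 for *Foxc2* and -0.26 for *Foxd1*, with adjusted p between 0.317 and 0.581 (limma). *Tcf21* between the days was 0.45 (adjusted p = 0.257, limma).

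**Figure D3:**
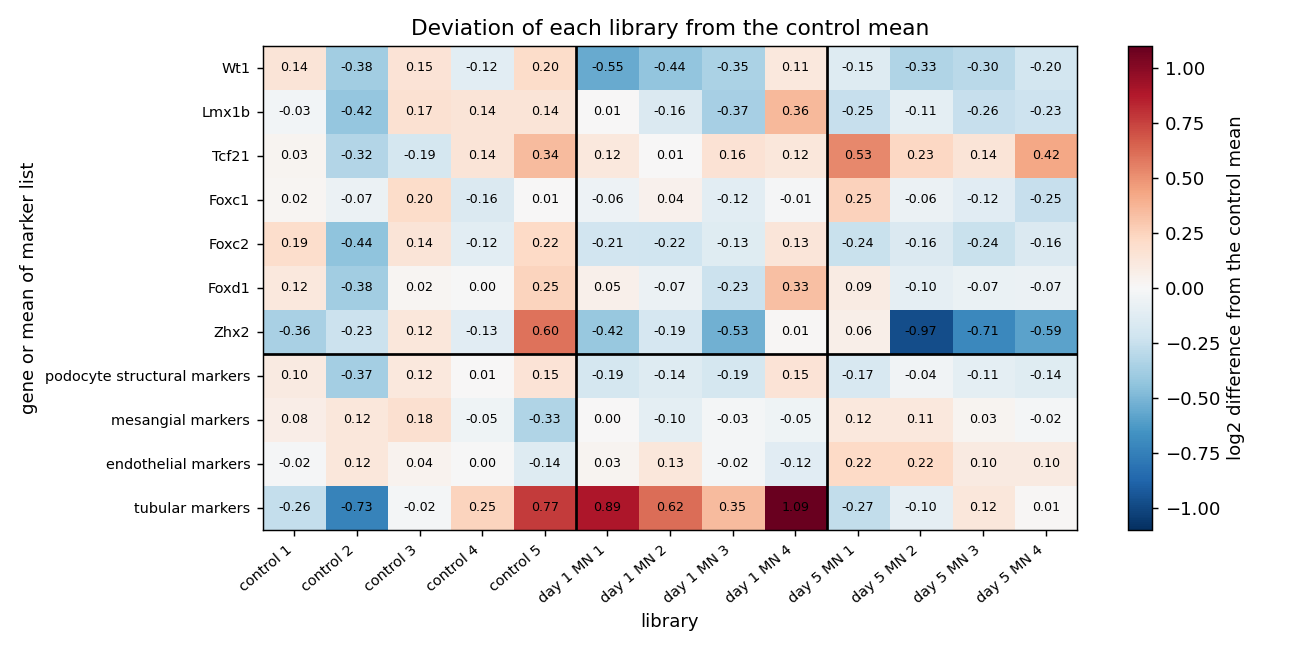
Log2 difference of each library (columns) from the control mean for the 7 transcription factors (upper part) and for the mean of 4 marker lists (lower part). Red is above and blue below the control mean. Control 2 is below it for all 7 factors and for podocyte and tubular markers, and day 5 libraries 2, 3 and 4 are lowest for *Zhx2* (-0.97, -0.71 and -0.59).

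The genes most like each factor over the 13 libraries, by Pearson r, differed between factors. They were *Nck2*, *Ube2ql1* and *Fnbp1l* for *Wt1* (0.91 to 0.88), *Dcdc2a*, *Epn3* and *Syt9* for *Lmx1b* (0.92 to 0.89), and *Lrrc1*, *Abca2* and *Il13ra1* for *Foxc2* (0.93 to 0.91). *Foxd1* was most like *Ipp* and *Idh3a* (0.91 for each). *Tcf21* was most like *Slc2a12*, *Tmod3* and *Dmac1* (0.92 to 0.88), and *Zhx2* was most like *Tgfbr3* and *Coro2a* (0.92 and 0.91). *Foxc1* had the lowest best values, with *Spsb1*, *Pnpla2* and *Vasn* (0.86 to 0.85). For each factor these are the highest of 14321 r values over only 13 libraries. High values therefore come with the choice, and no test was run.

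Among 19 paralogs, binding partners and other kidney transcription factors, 17 were tested with limma, and 0 were called at day 1 and 1 at day 5 (0.0908% and 3.21% of all tested genes). An unadjusted p under 0.05 was found for 3 at day 1 and 6 at day 5 (12.6% and 20.1% of all tested genes). The called gene was *Basp1*, which encodes a WT1 corepressor and rose from 10.8 ± 1.12 TPM (n = 5) to 15.5 ± 1.53 (n = 4) with no overlap (log2 fold change 0.54, adjusted p = 0.0149, limma). Its call was lost in 5 of 26 alternatives, among them without control library 5 (0.49, adjusted p = 0.0358), without day 5 library 1 (0.48, adjusted p = 0.0559) and without day 5 library 2 (0.53, adjusted p = 0.0508). The median log2 fold change of the 17 at day 5 was 0.06, beside -0.0032 over all tested genes.

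Over the 17 genes, 9 had a fold change above 0 and 8 below 0 at day 5. *Ldb1*, the LIM domain binding cofactor of LMX1B, was 158 to 198 TPM in control libraries and 140 to 153 at day 5 with no overlap (log2 fold change -0.18, adjusted p = 0.0691, limma). *Zhx1*, a partner of ZHX2, was 50.2 to 59.0 TPM in control libraries and 45.3 to 48.0 at day 5, again with no overlap (-0.20, adjusted p = 0.0550, limma). Such a lack of overlap at day 5, also seen for *Basp1*, held for 10.8% of all tested genes. With scaling on podocyte markers *Ldb1* had -0.07 (adjusted p = 0.883, limma) and *Zhx1* -0.08 (adjusted p = 0.841, limma). *Zhx3*, the third member of that family, had -0.11, and *Dach1*, a nuclear protein used to count podocytes, had -0.07 (53.5 ± 3.24 against 58.0 ± 7.93 TPM), which turned to 0.04 with scaling on podocyte markers. *Lmx1a*, the paralog of *Lmx1b*, had at most 0.106 TPM in any library and was not tested.

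Of 15 podocyte genes described as targets of podocyte transcription factors such as WT1 and LMX1B, 14 were tested with limma, with 0 called at day 1 and 3 at day 5 (0.0908% and 3.21% of all tested genes). An unadjusted p under 0.05 was found for 5 at day 1 and 7 at day 5 (12.6% and 20.1% of all tested genes). *Arl4c*, which encodes a small ARF-like GTPase, rose from 14.0 ± 1.49 to 25.3 ± 3.84 TPM (log2 fold change 0.85, adjusted p = 0.00133, limma). *Plce1*, which encodes phospholipase C epsilon, fell from 89.4 ± 7.56 to 58.2 ± 11.7 TPM (-0.60, adjusted p = 0.0106, limma). *Sulf1*, which encodes a heparan sulfate 6-O-endosulfatase, fell from 45.2 ± 8.35 to 27.5 ± 1.77 TPM (-0.65, adjusted p = 0.0135, limma). For these 3 genes, named because they were called, the 4 day 5 libraries did not overlap with the 5 control libraries. That held for 10.8% of all tested genes. The *Plce1* call was lost without day 5 library 1 (-0.50) and with scaling on podocyte markers (-0.48), by the fold threshold alone.

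Another 2 of these 14 genes passed the adjusted p but not the fold threshold at day 5, and 6.12% of all tested genes passed the adjusted p. *Synpo*, which encodes the actin-associated protein synaptopodin, had 1350 to 1552 TPM in control libraries and 915 to 1159 at day 5 (-0.46, adjusted p = 0.00197, limma). *Cd2ap*, which encodes a slit diaphragm adaptor, had 140 to 161 and 113 to 128 TPM (-0.29, adjusted p = 0.0117, limma). With scaling on podocyte markers neither passed (*Synpo* -0.34, adjusted p = 0.0919, and *Cd2ap* -0.17, adjusted p = 0.518, limma), *Synpo* being one of the scaling markers itself. The slit diaphragm genes *Magi2* (-0.60, adjusted p = 0.0661, limma, with overlapping ranges) and *Nphs1* (-0.18) and the basement membrane collagen genes *Col4a3* (0.03) and *Col4a4* (0.02) were not called. Over the 14 genes, 7 were above and 7 below 0 at day 5, with a median of -0.05.

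**Figure D4:**
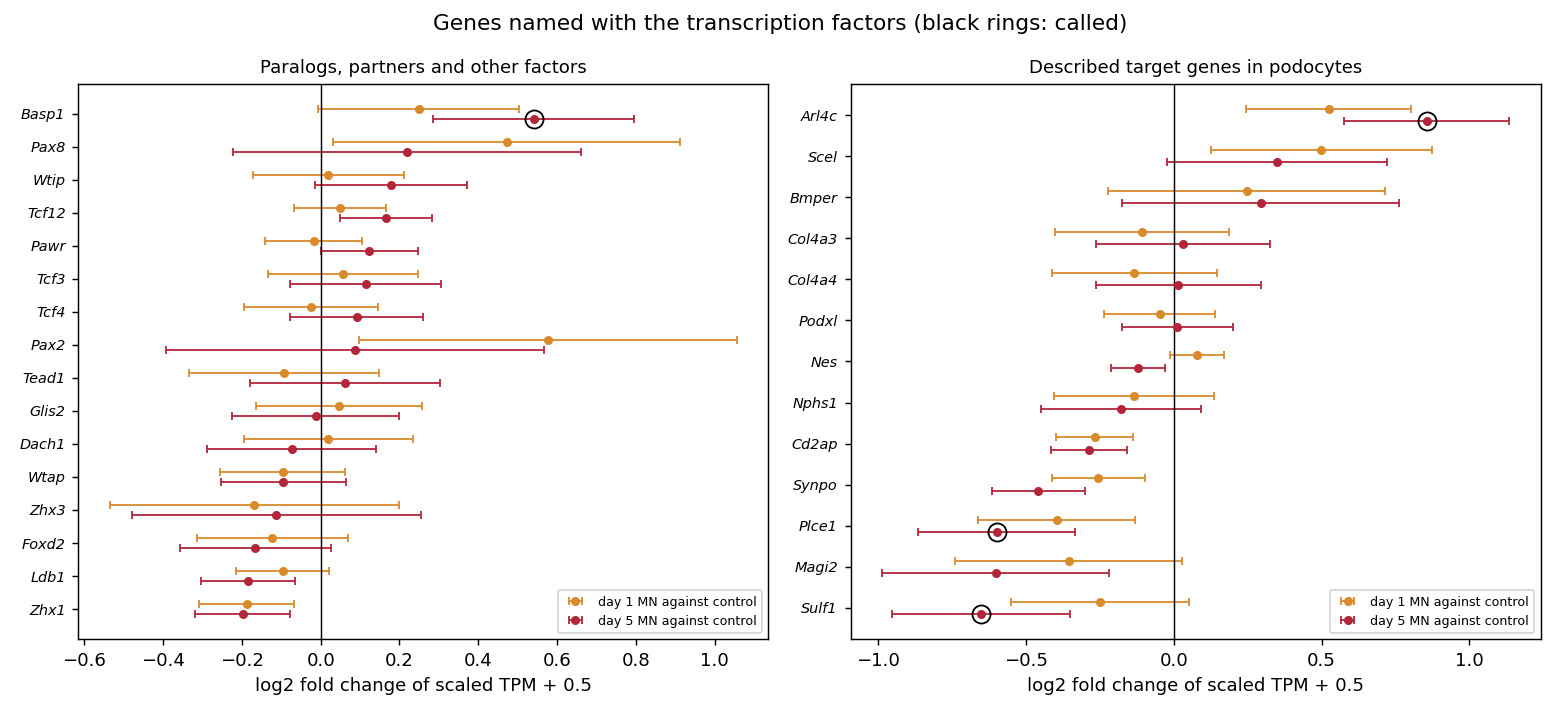
Log2 fold change of scaled TPM + 0.5 (horizontal axis) with 95% intervals from limma, for day 1 and day 5 MN against control, for paralogs, partners and other factors (left) and described target genes (right), ordered by day 5. Black rings mark called genes, which are *Basp1* (0.54), *Arl4c* (0.85), *Plce1* (-0.60) and *Sulf1* (-0.65), all at day 5.

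Markers of the other glomerular cells moved as follows beside these results. Of all tested genes, 0.0908% were called at day 1, 3.21% at day 5 and 1.81% between the days. An unadjusted p under 0.05 was found for 12.6% at day 1 and 20.1% at day 5. Of 5 proliferation markers, 4 (*Mki67*, *Top2a*, *Cdk1* and *Ccnb1*) were called higher at day 5, with *Mki67* going from 1.01 ± 0.542 to 11.0 ± 3.35 TPM. At day 1 limma called 0 of the 5, and 1 had an unadjusted p under 0.05. Of 4 parietal epithelial markers, *Cldn1*, which encodes a tight junction protein, was called at day 5 (log2 fold change 1.08, adjusted p = 0.00360, limma). The 4 ranged down to -0.44, for *Ncam1* (adjusted p = 0.145, limma), with a median of 0.26. With *Cldn1*, 2 of the 4 passed the adjusted p at day 5. All 6 endothelial markers had a fold change above 0 at day 5 (median 0.17), with 0 called by limma and 3 with an unadjusted p under 0.05. Of these, 1 passed the adjusted p but not the fold threshold (6.12% of all tested genes passed the adjusted p). All 8 tubular markers had a fold change above 0 at day 1 (median 0.71), with 0 called by limma and 5 with an unadjusted p under 0.05. Between the days, *Aqp2*, which encodes the collecting duct water channel, was called lower at day 5 (-1.30, adjusted p = 0.0286, limma). Limma called 0 of 6 mesangial and 0 of 4 tested leukocyte markers at either day, with 1 unadjusted p under 0.05, for *Ptprc* at day 5. The part of these changes in the values of the transcription factors was not tested.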

How the data were processed

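RNA of isolated glomeruli was sequenced in 13 libraries, 1 per mouse. Per the labels, the authors used FastQC 0.11.9, Trimmomatic 0.39 and kallisto 0.46.2 on GRCm39, and deposited TPM, 1 value per gene symbol and library. TPM keep no read depth, so the depth was unknown and no counting interval was given. Groups came from the sample labels. The 7 factors and the lists were chosen with earlier results of these data known.

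Each library was scaled by a median-of-ratios factor from the 15772 genes that no library listed at 0 ("scaled TPM"), and log2 was taken after adding 0.5. Genes reaching 1 TPM in no fewer than 4 libraries (14322) entered 1 fit of all 3 groups with limma 3.58.1 in R 4.3.3 (eBayes with a mean-variance trend, Benjamini-Hochberg adjustment within each comparison). Calls required an adjusted p under 0.05 with a log2 fold change beyond 0.5 in either direction. Ranges over libraries use unscaled TPM, and marker sums use scaled TPM.

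Named genes are the 7 factors, *Lmx1a*, *Ldb1*, *Zhx1*, *Zhx3*, *Dach1*, called genes of the lists, the 3 genes most like each factor and overlapping genes. A few genes that it covers are left out of the text but count in the lists. Other genes of the lists that are named with values (*Synpo*, *Cd2ap*, *Magi2*, *Nphs1*, *Col4a3*, *Col4a4* and *Ncam1*) were chosen after their values were seen. Gene positions are those of GENCODE on GRCm39, and promoter windows from RefSeq on GRCm38.p6. Replicate numbers of the titles are different mice. Deviations of same-numbered libraries from their group means had correlations of -0.0563 to 0.0913, so the numbers were used as a block only in an alternative. The other alternatives were pseudocounts of 0.1 and 1, TPM as deposited, quantile normalization, scaling on podocyte markers, all genes without a filter, genes reaching 1 TPM in all libraries only, no trend, array quality weights, only the compared groups, the adjusted p alone, each library left out, and a tubular marker score as covariate, the last chosen after seeing the data. Figures used Python 3.11.15 with matplotlib 3.10.9.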

Additional observations from a re-analysis of the deposited data

Results flagged for a closer look

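Among 51 groups of libraries (17 genes named in the text, 3 groups each), 1 held a library far from the others by Dixon's test, where chance gives about 1 in 20. *Basp1* had 8.86 TPM in control library 5 and 11.0 to 11.8 TPM in the other 4 control libraries. Without that library the day 5 log2 fold change of *Basp1* was 0.49. None of the 21 groups of the 7 transcription factors held such a library.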

How the results depend on the processing

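The number of transcription factors called was 0 in all 3 comparisons under each of the 26 alternatives, of which 13 left out a library. Of 546 values of the 7 factors under alternatives, 520 kept their direction and 26 did not, and 2 had an adjusted p under 0.05, both for *Tcf21* at day 5. Many of the 520 could not change direction, because some alternatives leave the fold change as it was. These were the adjusted p alone, the changed filters, no trend and only the compared groups. Leaving out a library of the group not compared did the same. With the replicate block, the same-numbered mice being unrelated, *Tcf21* at day 5 had 0.42 (adjusted p = 0.0202, limma) and *Foxd1* turned to 0.0255. Control library 5 has no same-numbered partner, so the blocked fold changes against control equal those without it. No factor was called with the block. Over all genes, 13, 460 and 259 were called at day 1, at day 5 and between the days, 149, 348 and 331 with the block, and 217, 403 and 435 without control library 5 and with no block.

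Scaling on podocyte markers turned *Lmx1b* (0.0539) and *Foxc1* (0.0567) at day 1, *Foxc1* (0.0667), *Foxd1* (0.0766) and *Dach1* (0.0407) at day 5, and *Foxc1* (0.0101) between the days. TPM as deposited turned *Foxd1* (-0.0226) at day 1. The tubular score turned *Tcf21* (-0.10) and *Foxd1* (-0.26) at day 1, and *Lmx1b* (0.18), *Foxc2* (0.15), *Foxd1* (0.24) and *Zhx2* (0.0700) between the days. Leaving out each library gave ranges across 0 at day 1 for *Lmx1b* (-0.17 to 0.0691), *Foxc1* (-0.0767 to 0.0137) and *Foxd1* (-0.0816 to 0.11), at day 5 for *Foxc1* (-0.15 to 0.0208) and *Foxd1* (-0.13 to 0.0255), and between the days for *Wt1* (-0.0206 to 0.20), *Foxc1* (-0.11 to 0.0570) and *Foxd1* (-0.14 to 0.0455). The causes were not tested. *Tcf21* and *Zhx2* kept their direction at day 5 throughout, with log2 fold changes of 0.25 to 0.42 and -0.76 to -0.40 over the libraries left out. So did *Wt1* (-0.34 to -0.19), *Lmx1b* (-0.32 to -0.17) and *Foxc2* (-0.31 to -0.15). With 4 or 5 mice per group, the 95% intervals at day 5 had standard errors of 0.10 (*Foxc1*) to 0.22 (*Zhx2*) on the log2 scale. Depth was unknown and could not be weighed.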
